A study of Caenorhabditis elegans with 51 samples.

Results

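PUF proteins, named after Drosophila Pumilio and C. elegans FBF, are RNA-binding proteins. Many of them recognise short elements in the 3' untranslated regions of mRNAs and mostly lower the translation or stability of those mRNAs. In the worm germline they keep stem cells dividing, control the switch between sperm and oocyte production and hold maternal mRNAs silent in growing oocytes. The 10 family genes described here were chosen by gene symbol: fbf-1, fbf-2, puf-3, puf-5, puf-6, puf-7, puf-8, puf-9, puf-11 and puf-12. These genes, and the partner and target genes listed below, were chosen with earlier results of these data known. Their counts beside those of all tested genes are therefore a description. All 10 were found among the 20202 genes of the deposited table, and all 10 passed the filter on low values that left 10908 genes for testing. The quantity measured was not mRNA but small RNA assigned to each gene.

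HRDE-1 is a nuclear Argonaute protein of heritable gene silencing, and CSR-1 is an Argonaute protein that binds small interfering RNAs (siRNAs) made against mRNAs of germline-expressed genes. Both proteins carry siRNAs that RNA-dependent RNA polymerases copy from mRNA, so the siRNAs of a PUF gene can be counted in either protein. Of the 51 samples in the series, 6 are used here: 2 libraries of small RNA precipitated with HRDE-1 (HRDE-1 sRIP), 2 with CSR-1 (CSR-1 sRIP) and 2 of the input to the precipitations. All 6 libraries came from young adults of 1 strain, CSS342, which combined the allele Cer3(red20) with SF-HRDE-1 and with c-myc-CSR-1. The retrotransposon Cer3 therefore held a fragment of oma-1 in the HRDE-1, CSR-1 and input libraries alike, and both Argonautes were tagged in all 6. The labels name no precipitation from untagged worms, so binding to the beads or the antibody was not measured here. They also do not say whether replicates 1 and 2 came from separate cultures, so p-values may measure technical spread only.

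Values are reads scaled to gene model length and library size (RPKM) as calculated by the authors, and therefore shares of each library and not amounts. Deduced library totals were 4872549 and 3248065 reads for HRDE-1, 4992358 and 2991634 for CSR-1 and 2728020 and 2104162 for the input. Gene models held 49.2% and 51.2% of the HRDE-1 reads, 40.1% and 43.1% of the CSR-1 reads and 50.7% and 52.6% of the input reads. The 2 input libraries differed by less than the sampling noise (chi-square test over 8966 genes, ratio to its degrees of freedom 0.991, p = 0.734) and were counted as 1 sample, so input means carry no SD. A gene was called higher or lower at an adjusted p under 0.05 in limma and a fold change of at least 1 on the log2(RPKM + 1) scale. The worms were sampled whole, so for the level within a library, fewer cells of a type and less small RNA per cell cannot be told apart.

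In HRDE-1 sRIP, 4 of the 10 PUF genes, namely fbf-1, fbf-2, puf-3 and puf-11, fell against the input, beside 10.3% of all tested genes called lower, and 0 rose, beside 7.15%. With the input counted once, all 4 of these calls were lost when any 1 HRDE-1 or CSR-1 library was left out, and also when library medians were centred. In CSR-1 sRIP, puf-9 fell against the input, beside 36.8% of all tested genes, and 0 of the 10 rose by the called size, beside 7.13%. A further 7 lay above the input at an adjusted p under 0.05 in limma. With no filter on low values, fbf-1 and fbf-2 did not reach this, and fbf-2 also did not on the log2(RPKM + 0.1) scale. Over all tested genes, 7939 of 10908 had an unadjusted p under 0.05 in either direction. Without HRDE-1 replicate 1 or 2, most of the 7 lost this when the input was counted once, and all kept it with 2 input samples. Set directly against CSR-1 sRIP, HRDE-1 sRIP held less siRNA of 7 genes (fbf-1, fbf-2, puf-3, puf-5, puf-8, puf-11 and puf-12), beside 26.6% of all tested genes, and more of 1, puf-9, beside 43.7%. The genes puf-6 and puf-7 were not called in any of the 3 comparisons. Comparisons of HRDE-1 and of CSR-1 with the input share the input libraries, so their values are given side by side and were not correlated.

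**Figure D1:**
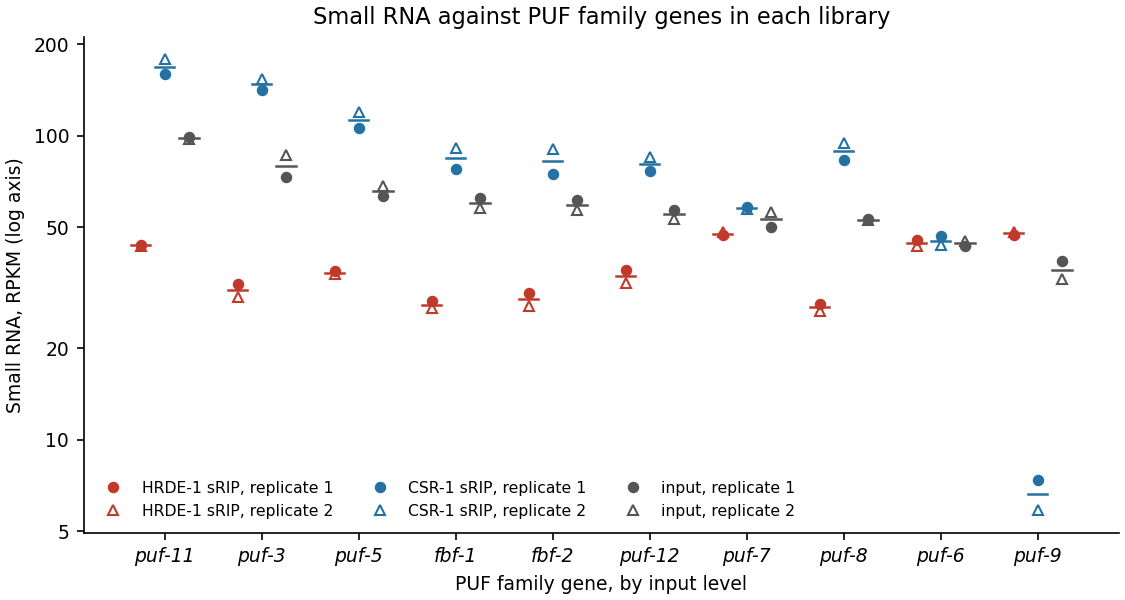
Small RNA level of each PUF gene in RPKM (log axis), with 1 point per library for HRDE-1 sRIP, CSR-1 sRIP and input; genes are ordered by their mean input level. HRDE-1 means ran between 27.3 and 47.8 RPKM, CSR-1 means between 6.63 and 169 RPKM and input means between 36.3 and 98.6 RPKM, and puf-9 is the gene whose CSR-1 points lie far below the rest.

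The spread of mean levels over the family differed between the 3 groups. The highest mean was 1.75-fold the lowest in HRDE-1 sRIP, 25.5-fold in CSR-1 sRIP and 2.72-fold in the input. The 25.5-fold rested on puf-9: over the other 9 genes the spread was 1.75-fold in HRDE-1 sRIP, 3.74-fold in CSR-1 sRIP and 2.23-fold in the input. Summed over the 10 genes, mean levels came to 369 RPKM in HRDE-1 sRIP, 877 RPKM in CSR-1 sRIP and 606 RPKM in the input. In HRDE-1 sRIP the order of mean levels was puf-9, puf-7, puf-6, puf-11, puf-5, puf-12, puf-3, fbf-2, fbf-1 and puf-8. Its 2 libraries kept neighbours apart only between puf-7 and puf-6, puf-11 and puf-5, and puf-12 and puf-3. In CSR-1 sRIP the order was puf-11, puf-3, puf-5, puf-8, fbf-1, fbf-2, puf-12, puf-7, puf-6 and puf-9. There the ranges of puf-8 and fbf-1, of fbf-1 and fbf-2, and of fbf-2 and puf-12 overlapped, and all other neighbours were apart. In the input the order was puf-11, puf-3, puf-5, fbf-1, fbf-2, puf-12, puf-7, puf-8, puf-6 and puf-9, with overlap between fbf-1 and fbf-2, between puf-12 and puf-7 and between puf-7 and puf-8. Thus puf-9 had the highest mean of the family in HRDE-1 sRIP, where its range overlapped that of puf-7, and was lowest in CSR-1 sRIP and in the input.

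FBF-1 and FBF-2 are near-identical proteins that maintain germline stem cells and repress the sex-determination mRNA fem-3 and the differentiation mRNA gld-1. In the WBcel235 annotation, fbf-1 (WBGene00001401, H12I13.4) lies on chromosome II at 6078263-6080843, minus strand, with 8 exons and a protein of 614 residues. The gene fbf-2 (WBGene00001402, F21H12.5) lies 8019 bases away at 6088863-6091480, minus strand, also with 8 exons, and encodes 632 residues. The genome build behind the deposited values is not given in the sources used here, so these positions name the genes and were not used to count reads.

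For fbf-1, HRDE-1 sRIP had 28.6 and 27.2 RPKM, CSR-1 sRIP 77.7 and 91.5 RPKM and the input 62.6 and 58.0 RPKM. For fbf-2, HRDE-1 sRIP had 30.4 and 27.6 RPKM, CSR-1 sRIP 74.9 and 90.3 RPKM and the input 61.4 and 57.2 RPKM. In both genes every HRDE-1 library lay below every input library and every CSR-1 library above it, with no overlap. Means were 27.9 ± 1.01 RPKM for fbf-1 and 29.0 ± 1.97 RPKM for fbf-2 in HRDE-1 sRIP, and 84.6 ± 9.82 and 82.6 ± 10.9 RPKM in CSR-1 sRIP (SD, n = 2 each), against 60.3 and 59.3 RPKM in the input. HRDE-1 sRIP was lower than the input by a log2 change of -1.09 ± 0.14 (SE, adjusted p = 0.00958) for fbf-1 and -1.01 ± 0.15 (adjusted p = 0.0115) for fbf-2. CSR-1 sRIP lay above the input by 0.48 ± 0.14 (adjusted p = 0.0302) for fbf-1 and 0.47 ± 0.15 (adjusted p = 0.0444) for fbf-2, both under the called size. With no filter on low values, adjusted p in limma was 0.0713 for fbf-1 and 0.105 for fbf-2. Over all fits without 1 library, these CSR-1 values ran from 0.36 to 0.60 for fbf-1 and from 0.33 to 0.60 for fbf-2. Between the precipitates, HRDE-1 over CSR-1 was -1.56 ± 0.11 (adjusted p = 0.000175) for fbf-1 and -1.47 ± 0.12 (adjusted p = 0.000287) for fbf-2.

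The 2 fbf genes could hardly be told apart by level. Over the 6 libraries the ratio of fbf-1 to fbf-2 stayed between 0.941 and 1.04, and no other tested gene was nearer to either than its partner was. How reads that map to both genes were counted is not given in the sources used here, so the separate values of fbf-1 and fbf-2 are uncertain. The same limit applies to the paralogs puf-3 and puf-11 and to puf-6 and puf-7, whose level ratios were less even (0.679 to 0.887 for puf-3 over puf-11, and 0.757 to 0.963 for puf-6 over puf-7).

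PUF-3 and PUF-11 are close paralogs that act in oogenesis and, together with the FBF proteins, in stem cell maintenance. Both genes lie on chromosome IV in WBcel235 with 3 exons each: puf-3 (WBGene00004239, Y45F10A.2) at 13510307-13512162 on the minus strand, encoding 502 residues, and puf-11 (WBGene00022257, Y73B6BL.38) at 6421585-6423497 on the plus strand, encoding 505. They had the highest CSR-1 levels of the family. For puf-11, HRDE-1 sRIP had 43.9 and 43.4 RPKM, CSR-1 sRIP 159.5 and 179 RPKM and the input 99.5 and 97.8 RPKM. For puf-3, HRDE-1 sRIP had 32.6 and 29.5 RPKM, CSR-1 sRIP 141.5 and 154 RPKM and the input 73.5 and 86.3 RPKM. Neither gene had overlapping groups: HRDE-1 was lowest, CSR-1 highest and the input between them.

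Against the input, puf-3 had the largest fall of the family in HRDE-1 sRIP, -1.34 ± 0.13 (adjusted p = 0.00893), followed by puf-11 at -1.16 ± 0.12 (adjusted p = 0.00937). Within replicates 1 and 2 the HRDE-1 to input ratio was 0.444 and 0.341 for puf-3 and 0.442 and 0.444 for puf-11. CSR-1 sRIP lay above the input by 0.88 ± 0.13 (adjusted p = 0.00377) for puf-3 and 0.77 ± 0.12 (adjusted p = 0.00536) for puf-11, short of the called size. Among all tested genes, 99.3% had a lower CSR-1 level than puf-11. The direct comparison of HRDE-1 sRIP with CSR-1 sRIP gave the family's lowest values, -2.21 ± 0.10 (adjusted p = 6.56e-05) for puf-3 and -1.93 ± 0.10 (adjusted p = 8.44e-05) for puf-11.

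PUF-5, PUF-6 and PUF-7 act late in oogenesis and repress the Notch receptor mRNA glp-1 in oocytes. In WBcel235, puf-5 (WBGene00004241, F54C9.8) lies on chromosome II at 8575541-8577787, plus strand, with 5 exons and 553 residues. The near-identical pair puf-6 (WBGene00004242, F18A11.1) and puf-7 (WBGene00004243, B0273.2) lies on different chromosomes, puf-6 at II 13039792-13043445, minus strand, and puf-7 at IV 5486713-5490322, plus strand. Each of the pair has 4 exons and encodes 485 residues.

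For puf-5, HRDE-1 sRIP had 35.9 and 35.0 RPKM, CSR-1 sRIP 106 and 119.9 RPKM and the input 63.7 and 68.5 RPKM. Its 3 groups were apart, in the same order as those of puf-3 and puf-11. The HRDE-1 value was -0.88 ± 0.12 against the input (adjusted p = 0.0100) and the CSR-1 value 0.76 ± 0.12 (adjusted p = 0.00508), both under the called size. The HRDE-1 value against CSR-1 was -1.64 ± 0.10 (adjusted p = 0.000112), a called decrease.

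On the deposited scale the pair puf-6 and puf-7 did not show this spread. For puf-6, HRDE-1 sRIP had 45.4 and 43.4 RPKM, CSR-1 sRIP 46.7 and 43.6 RPKM and the input 43.4 and 45.2 RPKM. The 3 groups of puf-6 overlapped, and its means were 44.4 ± 1.42 RPKM in HRDE-1 sRIP and 45.2 ± 2.17 RPKM in CSR-1 sRIP (SD, n = 2 each), against 44.3 RPKM in the input. For puf-7, HRDE-1 sRIP had 47.2 and 48.3 RPKM, CSR-1 sRIP 58.2 and 57.6 RPKM and the input 50.1 and 56.4 RPKM. The puf-7 groups were apart but close, with HRDE-1 lowest and CSR-1 highest. Against the input, HRDE-1 sRIP gave 0.0035 ± 0.11 for puf-6 (adjusted p = 0.983) and -0.15 ± 0.10 for puf-7 (adjusted p = 0.248). CSR-1 sRIP gave 0.03 ± 0.11 for puf-6 (adjusted p = 0.838) and 0.12 ± 0.10 for puf-7 (adjusted p = 0.322). HRDE-1 sRIP against CSR-1 sRIP gave -0.02 ± 0.09 for puf-6 (adjusted p = 0.813) and -0.27 ± 0.08 for puf-7 (adjusted p = 0.0247), of which the puf-7 value passed the p but not the size. A p above the threshold does not show that the puf-6 levels were equal. When library medians were centred, the puf-7 value of HRDE-1 against the input turned to 0.23. That of puf-6 was 0.39 (adjusted p = 0.0408 in limma). CSR-1 values against the input became 0.49 for puf-6 (adjusted p = 0.0113) and 0.58 for puf-7 (adjusted p = 0.00656). After scaling each precipitate to the input's median, these CSR-1 values were 0.56 and 0.65, and HRDE-1 values 0.05 and -0.11. HRDE-1 against CSR-1 was then -0.51 and -0.77. The closeness of the groups therefore depended on the scale.

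**Figure D2:**
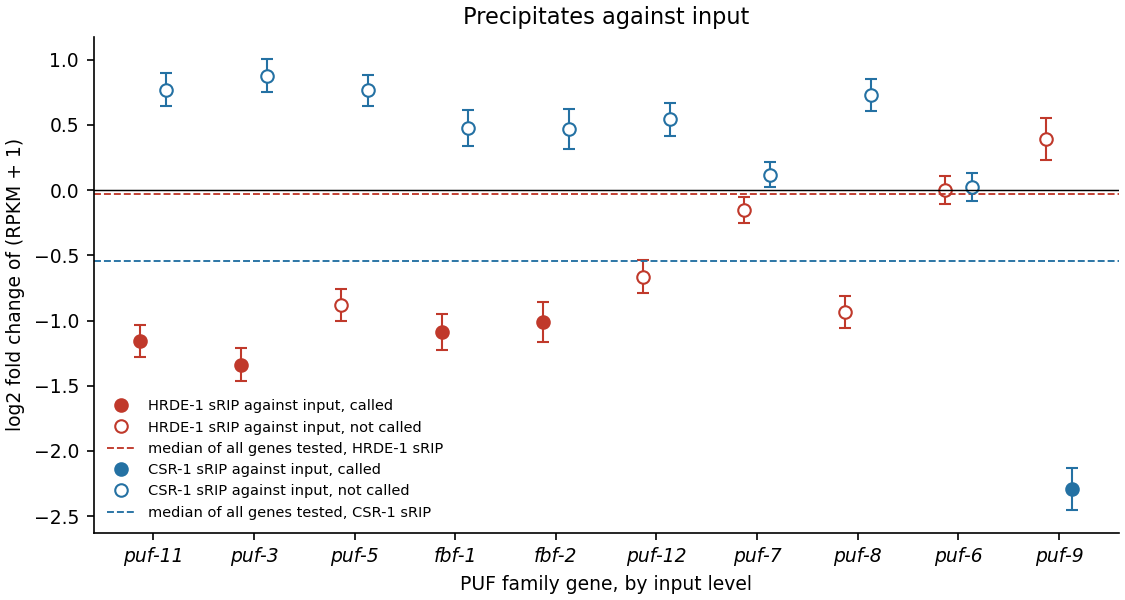
Log2 fold change of RPKM + 1 against the input for each PUF gene, with HRDE-1 sRIP and CSR-1 sRIP as separate points and bars of 1 SE; filled points were called and dashed lines mark the median of all 10908 tested genes. HRDE-1 points reach down to -1.34 for puf-3 and CSR-1 points lie above 0 for 9 genes, with puf-9 at -2.29.

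PUF-8 supports germline proliferation and holds developing spermatocytes in their path, and its gene (WBGene00004244, C30G12.7) lies at II 7296110-7298247, minus strand, with 6 exons and 535 residues. For puf-8, HRDE-1 sRIP had 28.1 and 26.5 RPKM, CSR-1 sRIP 83.5 and 94.4 RPKM and the input 53.2 and 53.0 RPKM. The groups were apart, and puf-8 had the lowest HRDE-1 mean of the family, 27.3 ± 1.10 RPKM, beside 89.0 ± 7.71 RPKM in CSR-1 sRIP (SD, n = 2 each) and 53.1 RPKM in the input. HRDE-1 sRIP was at -0.94 ± 0.12 (adjusted p = 0.00960) and CSR-1 sRIP at 0.73 ± 0.12 (adjusted p = 0.00604) relative to the input, both uncalled by size. The comparison of HRDE-1 with CSR-1 gave a called -1.67 ± 0.10 (adjusted p = 0.000112).

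The gene puf-12 (WBGene00014165, ZK945.3), at II 10100310-10103061 on the plus strand with 6 exons, encodes the longest protein of the family, 766 residues. For puf-12, HRDE-1 sRIP had 36.3 and 32.8 RPKM, CSR-1 sRIP 76.9 and 85.2 RPKM and the input 57.0 and 53.4 RPKM. Again the HRDE-1 libraries were lowest and the CSR-1 libraries highest with no overlap. The distances were smaller than in puf-3, puf-5, puf-8 and puf-11, at -0.66 ± 0.13 for HRDE-1 (adjusted p = 0.0172) and 0.54 ± 0.13 for CSR-1 (adjusted p = 0.0161) against the input. The difference of HRDE-1 from CSR-1 was called at -1.21 ± 0.10 (adjusted p = 0.000298).

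PUF-9 acts in somatic tissues at the larval-to-adult transition, where it represses the mRNA of the transcription factor hbl-1. Its gene (WBGene00004245, W06B11.2) is the only family member on the X chromosome, at 5841592-5845987 on the plus strand, and has 9 exons and 703 residues. For puf-9, HRDE-1 sRIP had 47.4 and 48.3 RPKM, CSR-1 sRIP 7.39 and 5.87 RPKM and the input 38.7 and 33.8 RPKM. HRDE-1 was highest and CSR-1 lowest with no overlap, so puf-9 was the one member with HRDE-1 above and CSR-1 below the input. The CSR-1 values rested on 122 and 58 deduced reads, with exact 95% counting intervals of 6.14 to 8.83 RPKM and 4.45 to 7.58 RPKM, which cover counting error only.

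Means for puf-9 were 47.8 ± 0.618 RPKM in HRDE-1 sRIP and 6.63 ± 1.08 RPKM in CSR-1 sRIP (SD, n = 2 each), against 36.3 RPKM in the input. CSR-1 sRIP fell to 0.183 of the input level, a log2 change of -2.29 ± 0.16 (adjusted p = 0.000530). The HRDE-1 value of 0.39 ± 0.16 against the input did not pass the test (adjusted p = 0.105). With 2 input samples it had an adjusted p of 0.0357, and with library medians centred it was 0.78 (adjusted p = 0.0101), both still under the called size. Directly compared, HRDE-1 sRIP was 7.21-fold CSR-1 sRIP, with ratios of 6.41 in replicate 1 and 8.23 in replicate 2 and a log2 change of 2.68 ± 0.13 (adjusted p = 7.29e-05). In CSR-1 sRIP, 43.6% of tested genes had a lower level than puf-9, compared with 76.2% in the input.

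Counts of called members were read against the same counts over all tested genes. For HRDE-1 sRIP against the input, 4 of 10 members were called lower, beside 10.3% of all tested genes, and 0 of 10 were called higher, beside 7.15% (17.5% in either direction). In limma 7 members had an unadjusted p under 0.05 in the lower direction and 0 in the higher one. Over all tested genes, 6043 of 10908 had one in either direction. Both HRDE-1 libraries lay below both input libraries in 8 members, beside 41.7% of tested genes, and above in 1, beside 37.8%. The members' median log2 change was -0.91, against -0.03 over all tested genes. These 4 calls changed with the libraries used. With any 1 HRDE-1 or CSR-1 library left out and the input counted once, these calls were lost. Over all fits without 1 library, values ran from -1.45 to -1.22 for puf-3 and from -1.17 to -1.15 for puf-11. They ran from -1.14 to -1.03 for fbf-1 and from -1.08 to -0.94 for fbf-2. Without input replicate 1, 3 were called and fbf-2 was lost. With the input taken as 2 samples and 1 library left out, 3 or 4 were called. After scaling to the input's median, 3 were called and fbf-2, at -0.97, was not. When library medians were centred, 0 were called, beside 333 of the 10908 tested genes called lower and 2254 higher. In that limma fit 8 members had an adjusted p under 0.05, and 6529 of the tested genes an unadjusted one. Of these members, puf-6 (0.39, adjusted p = 0.0408) and puf-9 (0.78, adjusted p = 0.0101) lay above the input and the rest below it. The 4 members called lower on the deposited scale had values of -0.95 for puf-3, -0.77 for puf-11, -0.70 for fbf-1 and -0.62 for fbf-2.

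For CSR-1 sRIP against the input, 1 of 10 members was called lower, beside 36.8% of all tested genes, and 0 of 10 were called higher, beside 7.13% (44.0% in either direction). In limma 7 members had an unadjusted p under 0.05 in the higher direction, and the same 7 an adjusted p under 0.05. Over all tested genes, 7939 of 10908 had an unadjusted p under 0.05 in either direction. Without HRDE-1 replicate 1, adjusted p was 0.0511 for puf-5, 0.0520 for puf-11, 0.0532 for puf-8, 0.0633 for puf-12, 0.127 for fbf-1 and 0.154 for fbf-2. Both CSR-1 libraries lay above both input libraries in 8 members, beside 33.2% of tested genes, and below in 1, beside 53.9%. The members' median was 0.51, while all tested genes had a median of -0.54. Relative to that median, the 9 members other than puf-9 lay between 0.57 for puf-6 and 1.42 for puf-3, and puf-9 lay at -1.75. With library medians centred, 5 members were called higher (puf-3, puf-5, puf-8, puf-11 and puf-12), beside 2540 of the 10908 tested genes. After scaling each precipitate to a median ratio of 0 against the input, fbf-1 also passed and 6 were called, beside 2785 of the tested genes.

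For HRDE-1 sRIP against CSR-1 sRIP, 7 of 10 members were called lower, beside 26.6% of all tested genes, and 1 of 10 was called higher, beside 43.7% (70.3% in either direction). Both HRDE-1 libraries lay below both CSR-1 libraries in 8 members, beside 39.5% of tested genes, and above in 1, beside 53.7%. The members' median was -1.52, against 0.60 over all tested genes. Relative to that median, puf-9 lay at 2.08, and the other 9 members between -2.82 for puf-3 and -0.63 for puf-6. The count of 7 lower and 1 higher was the same under every alternative that was run.

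**Figure D3:**
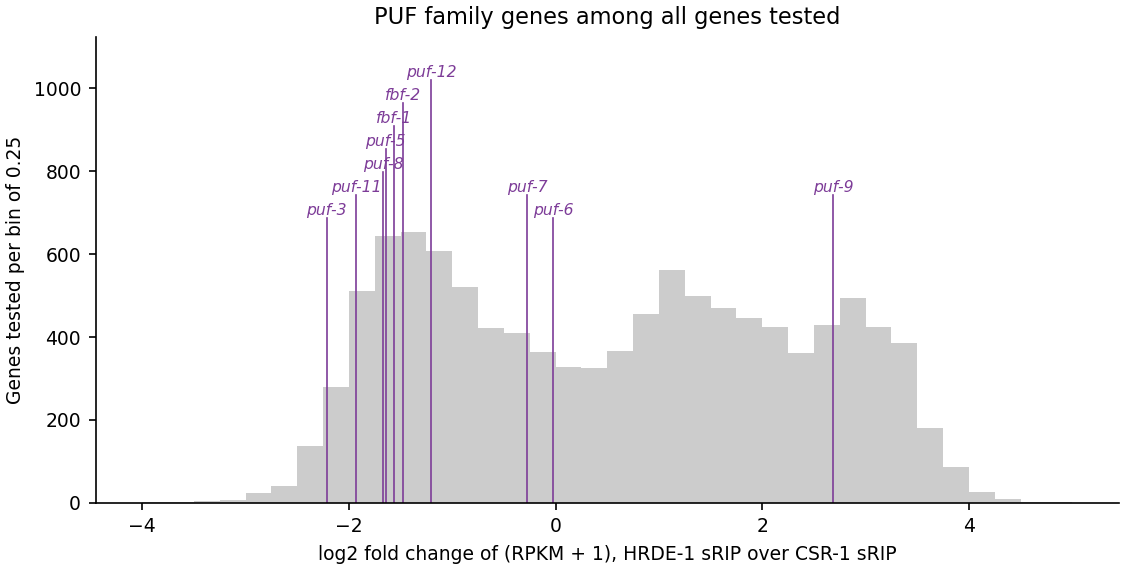
Number of tested genes by log2 fold change of HRDE-1 sRIP over CSR-1 sRIP (x axis), with a vertical line for each PUF gene. The median of all 10908 genes was 0.60; 9 members lie below it, down to -2.21 for puf-3, and puf-9 lies at 2.68.

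Called genes over the table were 780 higher and 1124 lower for HRDE-1 against the input, 778 and 4019 for CSR-1 against the input and 4767 and 2901 for HRDE-1 against CSR-1. With library medians centred, these counts were 2254 and 333, 2540 and 2969, and 4609 and 3086. After scaling each precipitate to the input's median, they were 977 and 1013, 2785 and 2810, and 3755 and 3835. Centring took the median of all tested genes to 0.35 for HRDE-1 against the input and to -0.08 for CSR-1 against the input.

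**Figure D4:**
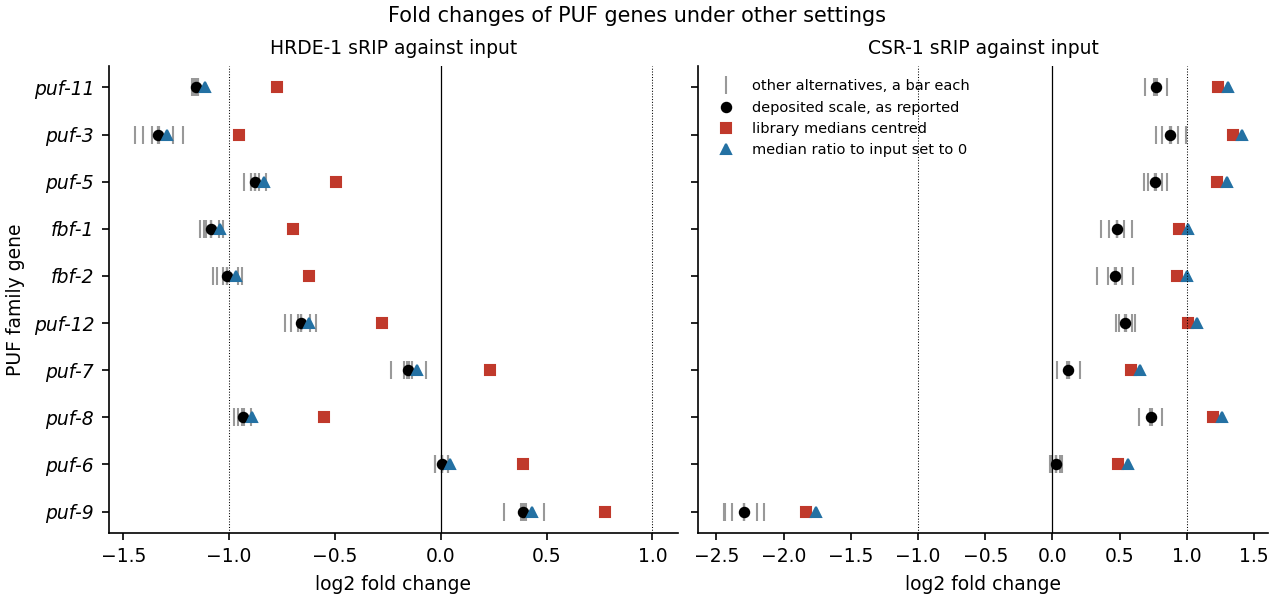
Log2 fold change of each PUF gene under the alternatives, with HRDE-1 sRIP against the input and CSR-1 sRIP against the input in separate panels. Centring library medians moved puf-3 to -0.95 in HRDE-1 sRIP and to 1.34 in CSR-1 sRIP, while puf-9 stayed between -2.44 and -1.76 in CSR-1 sRIP under the settings that keep all libraries.

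Marker genes moved alongside the members. The 8 germline markers (pgl-1, glh-1, cgh-1, mex-5, pie-1, oma-2, syp-1 and htp-3) summed to 232-239 RPKM in HRDE-1 sRIP, 695-757 RPKM in CSR-1 sRIP and 447-467 RPKM in the input, with 0 of 8 at 0. The order of the 3 groups was that of fbf-1, fbf-2, puf-3, puf-5, puf-8, puf-11 and puf-12. The 11 somatic markers (unc-54, myo-3, unc-15, rab-3, unc-119, sng-1, vit-2, vit-5, elt-2, rol-6 and dpy-7) summed to 108-112 RPKM in HRDE-1 sRIP, 14.2-15.9 RPKM in CSR-1 sRIP and 48.1-48.7 RPKM in the input, the order of puf-9. Most of the sum was unc-119, with means of 89.2 RPKM in HRDE-1 sRIP, 8.94 RPKM in CSR-1 sRIP and 35.1 RPKM in the input, and rab-3, with 15.4, 1.07 and 7.89 RPKM in the same order. The yolk protein genes vit-2 (0.0207, 1.36 and 0.584 RPKM) and vit-5 (0.0211, 3.19 and 1.74 RPKM) ran the opposite way. Of these 11, unc-15, elt-2, rol-6 and dpy-7 were at 0 in HRDE-1 sRIP, myo-3, sng-1, rol-6 and dpy-7 in CSR-1 sRIP, and unc-15, rol-6 and dpy-7 in the input. The 6 sperm markers (spe-9, spe-41, spe-11, msp-3, msp-31 and gsp-3) summed to 54.9-58.9 RPKM in HRDE-1 sRIP, 4.90-6.01 RPKM in CSR-1 sRIP and 44.3-50.9 RPKM in the input, also the order of puf-9. Most of this sum was spe-41, with means of 53.8 RPKM in HRDE-1 sRIP, 5.004 RPKM in CSR-1 sRIP and 39.4 RPKM in the input. The other tested sperm markers had lower HRDE-1 than input means, 1.93 against 3.84 RPKM for msp-3, 1.002 against 2.34 RPKM for msp-31 and 0 against 1.204 RPKM for gsp-3, and the median of the 4 tested was -0.81. Of these 6, spe-11 and gsp-3 were at 0 in HRDE-1 sRIP, msp-3, msp-31 and gsp-3 in CSR-1 sRIP, and 0 in the input. The part of germline, somatic or sperm siRNA in the values of the PUF genes was not tested.

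PUF proteins work with partners, and 13 of the 14 listed partner genes were found and tested. They comprise the Nanos genes, the FBF partners lst-1 and sygl-1, the CPEB protein gene cpb-1, the poly(A) polymerase genes gld-2 and gld-4, the GLD-2 partner gene gld-3 with gls-1, the dynein light chain gene dlc-1 and the deadenylase genes ccf-1 and ccr-4. In HRDE-1 sRIP against the input, 9 of the 13 had an unadjusted p under 0.05 in limma, beside 6043 of 10908 tested genes. The partners' median was -0.52, against -0.03 over all tested genes. Of the 13, 2 were called lower, beside 10.3% of all tested genes, and 0 higher. These were gld-2, at -1.05 ± 0.20 (adjusted p = 0.0171), and dlc-1, a cofactor of FBF-2, at -1.05 ± 0.14 (adjusted p = 0.00960). With the input counted once, both calls were lost without any 1 HRDE-1 or CSR-1 library, without input replicate 2 and with library medians centred. When library medians were centred, 1 partner was called higher in HRDE-1 sRIP, beside 2254 of the 10908 tested genes, and 0 lower, beside 333. With no filter on low values, 1 partner was called lower there, beside 920 of 16433 tested genes. In CSR-1 sRIP against the input, nos-3 (1.11 ± 0.13, adjusted p = 0.00219) and dlc-1 (1.09 ± 0.14, adjusted p = 0.00265) rose and cpb-1 fell (-1.05 ± 0.11, adjusted p = 0.00148), with a median of 0.55 against -0.54 over all tested genes and beside 7.13% called higher and 36.8% called lower. With library medians centred, 7 of the 13 partners were called higher, beside 2540 of the 10908 tested genes, and 0 lower, beside 2969. Without input replicate 1 the lower call of cpb-1 was lost.

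The partner dlc-1 had 14.2 and 11.9 RPKM in HRDE-1 sRIP, 59.8 and 61.4 RPKM in CSR-1 sRIP and 24.7 and 31.3 RPKM in the input, the widest difference between the precipitates in this list. HRDE-1 sRIP against CSR-1 sRIP called 8 of the 13 partners lower, beside 26.6% of all tested genes, and 0 higher, beside 43.7%. Their median was -1.39, against 0.60. In limma 11 of the 13 had an unadjusted p under 0.05, beside 9568 of the 10908 tested genes. The 8 lower genes were led by dlc-1 at -2.14, gld-4 at -1.64, nos-1 at -1.63 and gld-2 at -1.60. The gene cpb-1 went the other way without being called, with 26.3 and 25.9 RPKM in HRDE-1 sRIP, 17.5 and 18.1 RPKM in CSR-1 sRIP and 39.9 and 36.1 RPKM in the input. The partners with the highest input means were sygl-1 (48.4 ± 4.07 RPKM in HRDE-1 sRIP, 101 ± 12.9 RPKM in CSR-1 sRIP, 87.2 RPKM in the input), ccf-1 (73.3 ± 0.161, 90.2 ± 0.619 and 69.2 RPKM in the same order) and cpb-1. Of these, sygl-1 was among the 8 lower genes.

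Of 17 listed target genes of PUF proteins, 16 were tested, and fog-3, with 0 deduced reads in the input, was not. In HRDE-1 sRIP against the input, 14 of the 16 had an unadjusted p under 0.05 in limma, beside 6043 of 10908 tested genes. The targets' median was -0.69, against -0.03 over all tested genes. Of the 16 targets, 3, all of FBF, were called lower, beside 10.3% of all tested genes, and 0 higher. These were the cell cycle inhibitor gene cki-2 (-1.26 ± 0.12, adjusted p = 0.00893), gld-1 (-1.16 ± 0.15, adjusted p = 0.00960) and fem-3 (-1.11 ± 0.24, adjusted p = 0.0216). With the input counted once, these calls were lost without any 1 HRDE-1 or CSR-1 library, and not all held without input replicate 1. When library medians were centred, 2 targets were called higher, beside 2254 of the 10908 tested genes, and 0 lower, beside 333. With no filter on low values, 2 targets were called lower, beside 920 of 16433 tested genes. In CSR-1 sRIP against the input, 9 of the 16 had an unadjusted p under 0.05 in limma, beside 7939 of 10908 tested genes. The targets' median was 0.25, against -0.54. The genes fem-3 (-1.16 ± 0.24, adjusted p = 0.0107) and hbl-1 (-1.004 ± 0.21, adjusted p = 0.0113) fell, beside 36.8% of all tested genes, and 0 were called higher. Without CSR-1 replicate 2 the count was 0, and it was 1 without CSR-1 replicate 1 or either input replicate. With library medians centred, 3 of the 16 were called higher, beside 2540 of the 10908 tested genes, and 0 lower, beside 2969.

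HRDE-1 sRIP against CSR-1 sRIP called 6 of the 16 targets lower, beside 26.6% of all tested genes, and 2 higher, beside 43.7% (median -0.67, against 0.60). Of the targets, cki-2 differed most, with 12.2 and 13.8 RPKM in HRDE-1 sRIP, 61.9 and 61.2 RPKM in CSR-1 sRIP and 30.9 and 33.9 RPKM in the input, a log2 change of -2.16 between the precipitates. It was followed by hbl-1 at 1.65, gld-1 at -1.49 and the MAP kinase gene mpk-1 at -1.46. The target of PUF-9, hbl-1, had 3.27 and 2.99 RPKM in HRDE-1 sRIP, 0.324 and 0.309 RPKM in CSR-1 sRIP and 1.52 and 1.76 RPKM in the input, on 111, 11 and 34 deduced reads per group. Its groups were ordered as those of puf-9. The other target called higher was lip-1, which encodes a MAP kinase phosphatase and was named after its value was seen (1.35 ± 0.15, adjusted p = 0.000642). The targets with the highest input means were the meiotic chromosome axis genes htp-1 (103 ± 3.36 RPKM in HRDE-1 sRIP, 200.1 ± 20.1 RPKM in CSR-1 sRIP, 176 RPKM in the input) and him-3 (53.6 ± 0.916, 142 ± 16.7 and 83.9 RPKM in the same order), and the Ras gene let-60 (50.6 ± 2.77, 80.9 ± 4.75 and 64.2 RPKM).

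**Figure D5:**
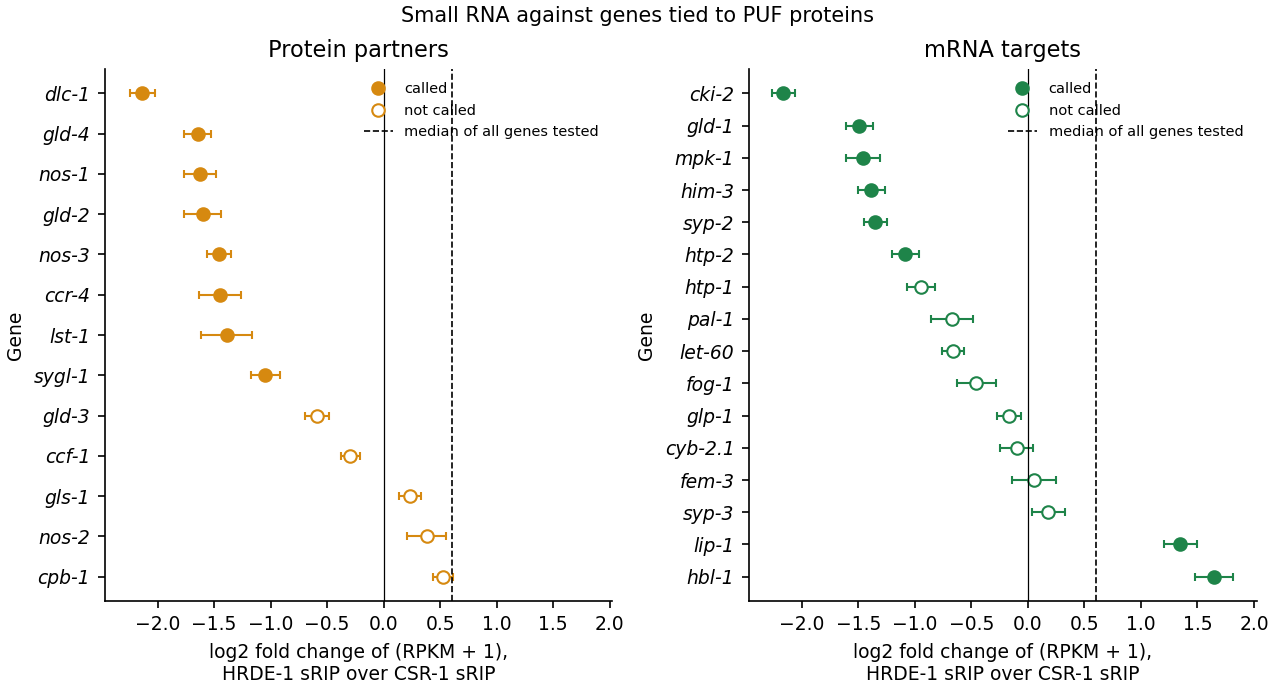
Log2 fold change of RPKM + 1 of HRDE-1 sRIP over CSR-1 sRIP, with bars of 1 SE, for the 13 tested partners (one panel) and the 16 tested targets (other panel). Partners run down to -2.14 for dlc-1, and among targets hbl-1 (1.65) and lip-1 (1.35) are the called genes above 0.

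The genes nearest to each member in level were found by the root mean square difference of log2(RPKM + 1) over the 6 libraries, as a description. For fbf-1 and fbf-2 the nearest gene outside the family was Y17G7B.20, at 0.06 and 0.08, farther than the 0.04 between the pair. The nearest outside genes were Y17G9B.9 for puf-3 (0.10), rsp-2 for puf-5 (0.07), W04A8.1 for puf-6 (0.09), lin-13 for puf-7 (0.09), set-26 for puf-8 (0.07), car-1 for puf-11 (0.08) and C26E6.6 for puf-12 (0.07). For puf-9 it was scrt-1 (0.10), with mean levels of 46.7 RPKM in HRDE-1 sRIP, 6.55 RPKM in CSR-1 sRIP and 38.6 RPKM in the input. The family member nearest to puf-9, puf-6, stood at 1.52, and 2526 tested genes were nearer. By contrast puf-8 was 0.12 from fbf-1, with 17 genes nearer.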

How the data were processed

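Small RNA libraries were made by ligation after phosphatase and polynucleotide kinase treatment, per the labels' protocols. The deposited RPKM values were calculated by the authors for 20938 gene models. Bowtie 1.2.3 was among the tools, per the submitters' processing notes. For genome build, annotation, strand, read lengths and multi-mapping reads, the treatment was not given in the sources used here. For symbols shared by several models (610), 1 model was kept, leaving 20202 genes. Library totals and read numbers were deduced from the RPKM steps (whole reads within a tolerance of 1e-06 of the value), so they are estimates, used only for depth, counting intervals and the comparison of replicates. Intervals cover counting error only, since reads carry no molecular identifiers.

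Genes with at least 1 RPKM in 2 or more libraries (10908) were fitted with limma 3.58.1 in R 4.3.3 on log2(RPKM + 1), with 1 mean per group, the input pair counted once (5 samples, 2 residual degrees of freedom, trended prior of 2.805 degrees of freedom) and two-sided tests adjusted by Benjamini-Hochberg over all tested genes. Fold changes on this scale understate changes of low genes. The script was tested on simulated data. Chi-square per degree of freedom between replicates was 1.97 for HRDE-1, 1.06 for CSR-1 and 0.991 for the input.

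Named genes were all 10 members, per comparison and list the called partners or targets with the 4 largest absolute log2 changes, the 3 per list with the highest input mean, and the gene nearest to each member. Members and lists were chosen with earlier results of these data known. The partner genes gld-4, gls-1 and sygl-1 were matched by sequence name through RefSeq, and ntl-1 was not matched. Gene positions came from the Ensembl annotation of WBcel235. A second table with 45 value columns that the labels do not tie to samples was not used here.

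Alternatives were a pseudocount of 0.1, no filter, centred library medians, a median ratio to the input of 0, 2 input samples with and without a replicate block, and leaving out each library. Leaving out libraries with 2 input samples was added after seeing the data.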

Additional observations from a re-analysis of the deposited data

How the results depend on the processing

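HRDE-1 against CSR-1 gave 7 members lower and 1 higher under every alternative run, and puf-9 was called lower in CSR-1 against the input under each of them. For HRDE-1 against the input, the 4 members called lower became 0 with library medians centred. Of all genes, 780 called higher became 491 without a filter and 2254 centred, and 1124 called lower became 333 centred. With 1 library left out, members called lower ranged over 0-4, all genes called higher over 0-1045 and lower over 0-1256, or 3-4, 673-1045 and 895-1447 with 2 input samples. Without a CSR-1 library 0 genes were called in this comparison with limma, while 5512 or 5508 had an unadjusted p under 0.05. For CSR-1 against the input, 0 members called higher became 5 centred and 6 after scaling to the input's median, and 778 genes called higher became 2540 and 2785, or 491-860 with 1 library left out. Scaled to 1 total per library, the summed family level was 316 RPKM in HRDE-1, 1245 RPKM in CSR-1 and 539 RPKM in the input. Sign changes concerned puf-7 in HRDE-1 against the input (0.23 centred) and puf-6 in all 3 comparisons. For puf-6 in HRDE-1 against the input, the value was -0.0285 without HRDE-1 replicate 1 and -0.0259 without input replicate 1 (-0.0282 and -0.0259 with 2 input samples), and up to 0.0354 without another library. In CSR-1 against the input it was -0.0214 without CSR-1 replicate 1 and -0.0028 without input replicate 1 (-0.0211 and -0.0028 with 2 input samples), and up to 0.0744. In HRDE-1 against CSR-1 it was 0.0089 without HRDE-1 replicate 2 and 0.0249 without CSR-1 replicate 1, and as low as -0.0709 without CSR-1 replicate 2. The cause of these changes was not tested.

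Deviations of same-numbered libraries had r = 0.03 between HRDE-1 and CSR-1, 0.02 between HRDE-1 and input and 0.004 between CSR-1 and input. Replicates of the input differed by about counting noise (chi-square per degree of freedom 0.991). Those of CSR-1 differed by slightly more than that (1.06, chi-square test over 7838 genes, p = 8.95e-05), which leaves little spread to correlate. These r values therefore cannot decide whether the numbers pair the samples. The library codes in the labels share a prefix within each replicate number, whose meaning is not given, and the numbers were not treated as pairing the samples. With a replicate block and 2 input samples, 4 members were lower in HRDE-1 and 1 in CSR-1 against the input, and 7 lower and 1 higher between the precipitates, the counts without it. Over all genes the block called 2099, 4894 and 7676, against 2088, 4888 and 7665 without it. Precision is limited by 2 libraries per group, 2 residual degrees of freedom and the unknown handling of reads shared by paralogs. With the input counted once, the spread of each gene was 1 estimate pooled over the HRDE-1 and CSR-1 pairs. The SE of a gene was therefore the same for both comparisons with the input, although the HRDE-1 pair differed more (chi-square per degree of freedom 1.97, against 1.06).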

Other observations

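A further family symbol in the table, puf-4 (M4.2), is annotated as a pseudogene and is outside the 10 members; it was looked at after its values were seen. It had 174 and 193 RPKM in HRDE-1 sRIP, 29.7 and 31.2 RPKM in CSR-1 sRIP and 208 and 232 RPKM in the input. In limma, CSR-1 sRIP was lower than the input by a log2 change of -2.81 (adjusted p = 0.000296), and the HRDE-1 value against the input was -0.26 (adjusted p = 0.152). HRDE-1 sRIP against CSR-1 sRIP gave 2.55 (adjusted p = 5.5e-05). As in puf-9, the CSR-1 libraries lay lowest.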
